A study of Mus musculus with 24 samples.

Results

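Group 3 is a set of single haematopoietic stem cells (HSCs) that carry the number 3 in the index-sort record of a study of mouse HSCs. It was taken by that number alone and holds 169 of the 1430 recorded cells. The record gives each cell a number from 1 to 10 and does not say what the number means or how it was made. All cells came from mice of the strain -60/DR5-TA-RA-CFP, which carries a cyan fluorescent protein (CFP) reporter, and passed a gate for LSK, CD150+, CD48- cells (LSK cells lack lineage markers and carry Sca-1 and Kit). The study asked how cell cycle status relates to differences in gene expression among HSCs. Single cells were sorted across the range of CFP into 384-well plates, and RNA was counted as unique molecular identifiers (UMIs), so that copies of a molecule made by amplification count once. The labels list 8 single-cell batches with no age or treatment, and the files do not tie a well to a batch, so the 4 sort plates (numbers 2 to 5) served as technical replicates of a pooled collection.

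Group 3 was compared with the 1251 other recorded cells of groups 2 and 4 to 10. Group 1, which holds 10 cells and 1407 UMIs of the haemoglobin gene Hba-a2, was left out. If the number was made from these UMI counts, a gene that differs between groups differs partly because the groups were built on it. The gene differences below are therefore given as a description of sizes against a spread between plates that is pooled over genes. The cytometer's channels are separate measurements of the same cells.

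Ifitm1 and Cd74, the marker genes given for this group, belong to separate arms of immune defence. Ifitm1, Ifitm2 and Ifitm3 are neighbouring genes for small membrane proteins that hinder the entry of viruses; interferon raises them in many cell types, and stem cells are known to hold several interferon-inducible genes at a steady level. Cd74 encodes the invariant chain, which guides MHC class II molecules (made from H2-Aa, H2-Ab1 and H2-Eb1) to the compartment where they take up peptides, and it also serves as a receptor for a cytokine. Most HSCs are quiescent, with low expression of the genes for DNA replication and mitosis.

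The 250 bases before the start of each of the 3 Ifitm genes are shown because Ifitm1 and Ifitm3 were higher in group 3 while their neighbour Ifitm2 was not called. They are RefSeq sequences of build GRCm38.p6, written 5′ to 3′ on the gene's own strand, at chr7:140967826-140968075 (plus strand, Ifitm1), chr7:140955962-140956211 (minus strand, Ifitm2) and chr7:141010745-141010994 (minus strand, Ifitm3). Capitals mark a match to GAAANNGAAA, the core of the interferon-stimulated response element, searched on both strands.
Ifitm1: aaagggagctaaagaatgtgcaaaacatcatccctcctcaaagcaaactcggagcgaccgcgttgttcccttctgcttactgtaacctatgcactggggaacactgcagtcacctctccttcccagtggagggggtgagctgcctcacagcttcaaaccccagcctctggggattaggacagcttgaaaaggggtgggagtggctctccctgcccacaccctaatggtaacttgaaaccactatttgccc
Ifitm2: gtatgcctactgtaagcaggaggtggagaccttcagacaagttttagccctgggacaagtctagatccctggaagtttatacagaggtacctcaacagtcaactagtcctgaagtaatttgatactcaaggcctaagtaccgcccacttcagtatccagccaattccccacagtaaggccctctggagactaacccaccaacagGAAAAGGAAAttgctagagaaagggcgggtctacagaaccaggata
Ifitm3: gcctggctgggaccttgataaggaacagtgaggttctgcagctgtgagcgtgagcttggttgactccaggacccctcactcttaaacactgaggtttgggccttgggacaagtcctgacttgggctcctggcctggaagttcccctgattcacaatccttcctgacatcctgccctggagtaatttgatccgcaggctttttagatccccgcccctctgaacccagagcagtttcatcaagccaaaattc
This motif occurred in 2.977% of the 32851 promoter windows of the same length, among them that of Ifitm2, 46 bases before the start. The windows of Ifitm1 and Ifitm3 held no match. Neither did they hold TTCNNNGAA, the core of a STAT site, which was found in 7.02% of windows. Of the 8 genes called higher in group 3, 6 had a promoter sequence to search, and none of these held either motif. A window without a match says only that these letters are not in it.

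Depth was shallow. Group 3 gave 21834, 60732, 49369 and 51911 UMIs on plates 2 to 5, and the other cells 458391 to 504861 per plate. A group 3 cell held 511 to 2287 UMIs, with a median of 1031 against 1322 in the other cells. The 106 wells without an index record held at most 502 UMIs each and 25068 in all, of which 67 were from Ifitm1 (2673 per 1000000) and 18 from Cd74 (718 per 1000000); these wells were not used. Plate 2 stood apart before any comparison. Over all its recorded cells it held 225 CPM of Ifitm1 (CPM, UMIs of the gene per 1000000 UMIs of the sum), where plates 3, 4 and 5 held 2402, 2556 and 2369. Ifitm3 was at 91.6 CPM there against 1453 to 1582, Ly6e at 312 against 2290 to 2342, and Malat1 at 502 against 902 to 1103, while Ifitm2 (681 against 638 to 757) and Cd74 (225 against 216 to 300) were close to the other plates. Mean levels of Ifitm1, Ifitm3 and Ly6e over plates are thus of little use, and each plate's value is given. CPM are unscaled, whereas the edgeR fold changes use TMM scaling of the sums. The TMM factor of group 3 was 1.24 on plate 2 and 0.95 to 0.96 on plates 3 to 5. That of the other cells was 0.97 to 0.99. Beside the fit, the CPM of group 3 on plate 2 are thus too high.

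Group 3 was also scarcer on plate 2. It made up 22 of 354 cells there (6.22%, 95% Wilson interval 4.14 to 9.23), and 52 of 343 (15.2%), 47 of 359 (13.1%) and 48 of 364 (13.2%) on plates 3, 4 and 5. Over all plates the share was 11.9% (10.3 to 13.7). These intervals cover counting error only.

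Ifitm1 was higher in group 3 than in the other cells of the same plate on all 4 plates. Group 3 held 458, 4215, 4922 and 4700 CPM on plates 2 to 5, and the other cells 214, 2173, 2303 and 2129 CPM. The 2 sets overlap only through plate 2, where both were low; within plates 3 to 5 they do not. The log2 fold change was 1.06 ± 0.13 (SE of the edgeR fit, n = 4 plates, edgeR adjusted p = 1.34e-11), and 1.09 without plate 2. Ifitm3 stood at 137, 2371, 2127 and 2658 CPM in group 3 and at 89.4, 1482, 1381 and 1367 CPM in the other cells. Its log2 fold change was 0.76 ± 0.15 (0.78 without plate 2, which carries only 3 UMIs of it in group 3). With each cell thinned to 500 UMIs it was 0.47 and no longer called (edgeR adjusted p = 0.258). The share of thinned cells with an Ifitm3 UMI was 0.52 and 1.59 points higher in group 3 on plates 3 and 4, 4.57 on plate 2 and 8.65 on plate 5; unthinned, the means over plates were 65.2% and 64.1%. Ifitm2, in contrast, lay at 824, 774, 770 and 655 CPM in group 3 and at 674, 697, 755 and 636 CPM in the others, with a log2 fold change of 0.07 ± 0.17. Ifitm7 had 6 UMIs in group 3 (log2 fold change 1.57 ± 0.97, not called), and Ifitm5 and Ifitm6 had none. Of the 4 Ifitm genes tested, 2 were called higher and the median log2 fold change was 0.91. Over all 6401 genes tested 8 were called higher and the median was -0.09. The genes of this family resemble each other, and the sources used here do not state how reads shared between them were counted.

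**Figure D1:**
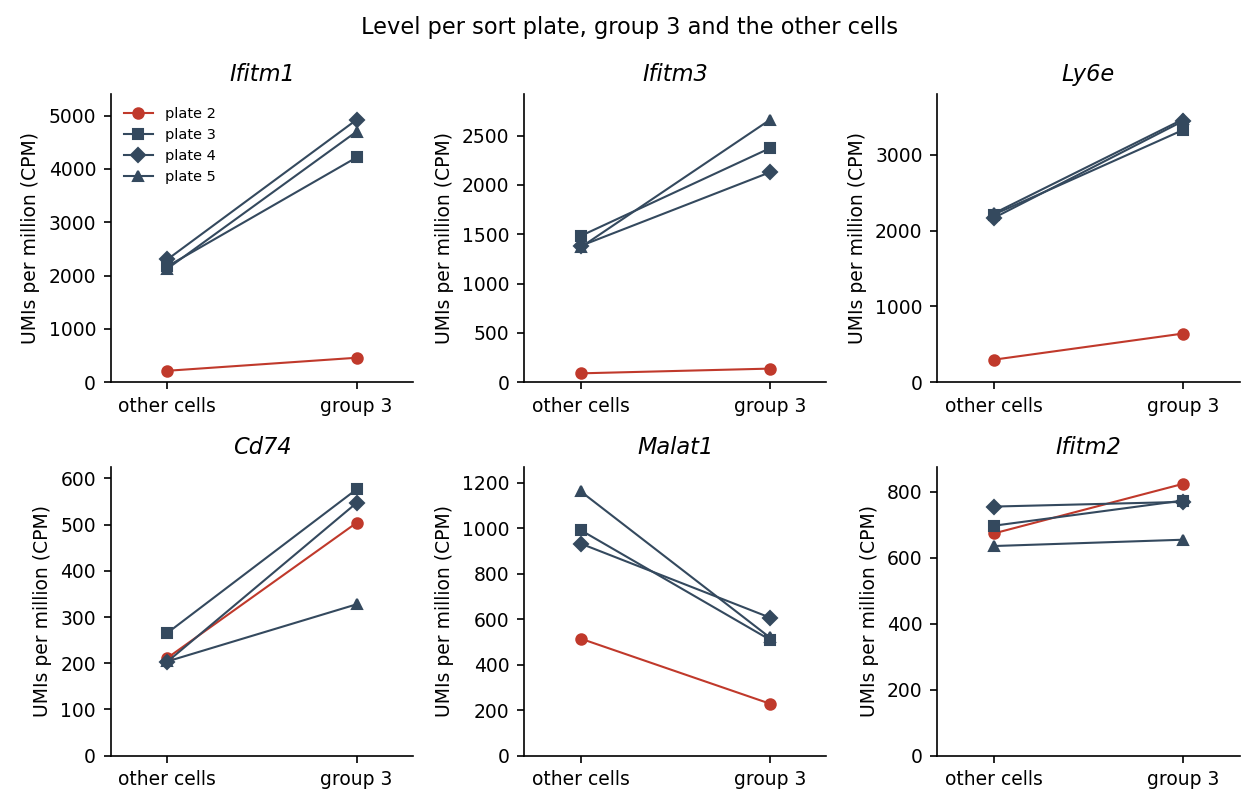
CPM (vertical axes, from 0) in the other cells and in group 3, with a line for each of the 4 sort plates and plate 2 in red. Ifitm1, Ifitm3, Ly6e and Cd74 rise and Malat1 falls along every line, Ifitm2 is nearly level on plates 4 and 5, and plate 2 lies far below the others for Ifitm1, Ifitm3 and Ly6e.

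Over all genes, 36 of 6401 were called by edgeR at an adjusted p under 0.05 (0.562% of those tested), 8 of them higher in group 3 (0.13%) and 28 lower (0.437%). With RLE size factors in place of TMM the split was 34 higher and 28 lower, and DESeq2 called 40 higher and 11 lower, so the balance between the directions rests on the scaling. Without plate 2 it was 34 higher and 24 lower. Without the plate as a block no gene was called in either direction (358 had an unadjusted p under 0.05); Ifitm1 then had a log2 fold change of 1.14 and an edgeR adjusted p of 0.707. Cd74, Ifitm1, Ifitm3 and Ly6e were called whichever plate was left out; Shisa5 and Pdzk1ip1 were called in 1 of these 4 fits, and Prtn3 and Pfdn5 in 2.

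Cd74 rose from 212, 266, 203 and 204 CPM in the other cells of plates 2 to 5 to 504, 576, 547 and 327 CPM in group 3. The sets do not overlap. Plate 2 of group 3 lies with plates 3 and 4 in unscaled CPM, and below both after TMM scaling. The log2 fold change was 1.08 ± 0.22 (edgeR adjusted p = 0.000596), on 90 UMIs of Cd74 in group 3; DESeq2 gave Cd74 no adjusted p. With the 20% of cells of each plate that were highest in S and G2/M genes left out of both sides, it was 0.77 and no longer called (edgeR adjusted p = 0.306). The MHC class II chains did not move with it as called genes. H2-Aa, the alpha chain of the A molecule, stood at 183, 198, 324 and 250 CPM in group 3 and at 253, 210, 249 and 246 CPM in the other cells (log2 fold change 0.00 ± 0.26). H2-Ab1, its beta chain, had a log2 fold change of 0.53 ± 0.35 and H2-Eb1, the beta chain of the E molecule, of 0.67 ± 0.39, on 28 and 24 UMIs in group 3. H2-Eb1 was higher on all 4 plates, at 183, 132, 122 and 116 CPM against 82.9, 81.0, 73.6 and 83.2, and its sets do not overlap. H2-Ab1 had mixed signs, at 321, 115, 81.0 and 193 CPM against 113, 122, 84.4 and 99.0. H2-DMa and H2-DMb1, which load the peptide, had 0.07 ± 0.22 and -0.22 ± 0.36, and the regulator H2-Oa 0.51 ± 0.75 on 7 UMIs. Among the enzymes of the pathway, the protease gene Ctsl had 1.08 ± 0.48 and the reductase gene Ifi30 0.18 ± 0.72. Ciita, the master activator of class II genes, had 2 UMIs in group 3, Ctss had 4, and H2-Ob and H2-Eb2 had none. In all, 1 of the 9 tested genes of class II presentation was called higher and none lower, with a median log2 fold change of 0.51. Above 0 lay 8 of the 9. Over all 6401 genes tested, 8 were called higher, 2787 lay above 0 and the median was -0.09.

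Cd74 is also a defining gene of B cells and dendritic cells, so their markers were read beside it. Of 11 B cell markers in the table, 8 were at 0 in group 3, among them Cd79a, Ms4a1 and Pax5; the summed list ran from 98.8 to 182 CPM in group 3 and from 81.2 to 131 in the other cells, 22 of its 24 UMIs being Cd79b. Of 12 dendritic cell markers, 7 were at 0, including Siglech, Xcr1, Clec9a and Zbtb46, and the list ran from 183 to 648 CPM against 313 to 337, with 57 of 79 UMIs from Bst2, which interferon also raises. T and NK cell markers gave 7 UMIs with 9 of 12 genes at 0. Mast cell markers gave none in 11 genes, and stromal markers 6 with 7 of 9 at 0. Other lists had few genes at 0. Monocyte and macrophage markers gave 97 UMIs with 2 of 12 genes at 0, 64 of them from the entry for Lyz1 and Lyz2. That list ran from 275 to 648 CPM in group 3 and from 229 to 632 in the other cells. Erythroid, megakaryocyte and endothelial markers gave 170, 405 and 92 UMIs, with 2 of 12, 2 of 19 and 3 of 11 genes at 0.

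Ly6e, an interferon-inducible gene for a membrane protein that limits coronavirus entry, was the only one of 26 tested interferon response genes called. It stood at 641, 3326, 3444 and 3468 CPM in group 3 and at 297, 2211, 2167 and 2226 CPM in the other cells. Group 3 was higher on each plate, and the sets overlap only because both were low on plate 2. The log2 fold change was 0.65 ± 0.14, and 0.65 again without plate 2. Without a filter on low counts it was 0.51 and not called (edgeR adjusted p = 0.0787). The list as a whole had a median log2 fold change of 0.37, with 1 of 26 genes called (36 of 6401 over all genes). In it 20 of 26 genes lay above 0 (2787 of 6401 over all genes tested). An unadjusted p under 0.05 in edgeR was found for 6 genes of the list (562 of 6401 over all genes). Some well known members, named after their values were seen, were not called: the ubiquitin-like modifier Isg15 had -0.46 ± 0.63, the tetherin gene Bst2 0.57 ± 0.26, Irf7 0.48 ± 0.37 and the guanylate-binding protein gene Gbp3 1.38 ± 0.48 on 21 UMIs. MHC class I genes, which interferon raises too, had a median of 0.03 with none of 13 called by edgeR and none at an unadjusted p under 0.05; DESeq2 called 1, H2-K1.

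The 4 other genes called higher moved by less. None of them was called with cells thinned to 500 UMIs, with cells of at least 1000 UMIs or without a filter on low counts. Without the most cycling cells none was called either, at log2 fold changes of 0.40 to 0.51. Pdzk1ip1, a small membrane protein gene known as an HSC marker, lay at 962, 922, 972 and 1252 CPM against 794, 571, 593 and 652 CPM (log2 fold change 0.65 ± 0.16). Its sets do not overlap in unscaled CPM. After TMM scaling group 3 was not higher on plate 2, and the sets overlap. Shisa5, a p53-inducible gene of the endoplasmic reticulum, lay at 687, 873, 871 and 905 CPM against 517, 544, 472 and 566 CPM (0.65 ± 0.17). These sets are also apart only in unscaled CPM. Prtn3, the gene of the granule enzyme proteinase 3, lay at 2061, 1202, 993 and 1156 CPM against 1014, 758, 747 and 786 CPM (0.59 ± 0.15), and Pfdn5, a subunit of the chaperone prefoldin, at 1511, 971, 1073 and 1117 CPM against 990, 741, 634 and 638 CPM (0.58 ± 0.16). Both were higher in group 3 on each plate, with plate 2 the highest of all. Prtn3 gave 227 of the 250 UMIs of the neutrophil and granule list. The other granule genes Mpo, Elane and Ctsg had 10, 6 and 4 UMIs, and S100a8, S100a9, Lcn2 and Cebpe had none.

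Among the HSC genes, 2 of 43 tested were called higher (Ifitm1 and Pdzk1ip1) and none lower, with a median log2 fold change of 0.08. Over all 6401 genes, 8 were called higher and 28 lower, with a median of -0.09. Hlf, a transcription factor of HSCs, had -0.16 ± 0.23, Mecom, a regulator of self-renewal, 0.12 ± 0.36, Procr, a surface marker, 0.46 ± 0.37, and Vwf, a marker of platelet-biased HSCs, 0.70 ± 0.40; these 4 were named after their values were seen. Genes of the sorting gate were sparse. Kit gave 39 UMIs in group 3 (log2 fold change -0.58 ± 0.26), Ly6a, the gene of Sca-1, 7 (-0.26 ± 0.69), Slamf1, the gene of CD150, 3, and Cd48 none. Cd34 gave 21 (-0.54 ± 0.36), Ptprc, the gene of CD45, 10 (-0.26 ± 0.56) and Flt3, a marker of cells beyond the HSC stage, 6 (0.14 ± 0.77). Of these 7 genes, which add Cd34, Ptprc and Flt3 to those of the gate, 5 were tested and none was called by edgeR or by DESeq2, with 1 and 0 of them at an unadjusted p under 0.05. Summed, the list was lower in group 3 on all 4 plates, at 385 to 560 CPM against 457 to 709. The retinoic acid response list had 9 tested genes, none called by either tool and 2 at an unadjusted p under 0.05 in each, with a median of 0.25. Over all 6401 genes tested, 562 were at an unadjusted p under 0.05 in edgeR and 417 in DESeq2.

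The genes lower in group 3 than in the pool of other cells were mostly those of DNA replication, mitosis and histones. Most of them were not called against groups 4, 5 and 2, as given below. In the list of S phase genes 5 of 43 were called lower and none higher, and the median log2 fold change was -1.08. Among G2 and M phase genes 8 of 46 were called lower and none higher, with a median of -1.42. Over all 6401 genes tested 28 were called lower (0.437%), with a median of -0.09. Spc24, a kinetochore gene, gave 0, 0, 0 and 38.5 CPM in group 3 and 199, 152, 197 and 166 CPM in the other cells, the widest gap among called genes with a UMI in group 3 (log2 fold change -3.98 ± 0.64). Uhrf1, which keeps DNA methylation through replication, gave 0, 16.5, 20.3 and 19.3 CPM against 179, 106, 180 and 135 CPM (-3.14 ± 0.61). Tk1, thymidine kinase, fell by 2.91 ± 0.50 and Cdca8, of the chromosomal passenger complex, by 2.66 ± 0.58, with no UMI in group 3 on plates 2 and 5. Pcna, the replication clamp, lay at 183, 198, 182 and 193 CPM against 338, 384, 407 and 361 CPM (-1.02 ± 0.26). For these 5 genes, as for most of the genes called lower, no plate of group 3 reached the other cells. Such a gap is partly built in by the call, and its share over all genes tested was not counted.

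Fam64a, Tmem98 and Pbk had no UMI in group 3. Against a floor of 3 UMIs over the whole group, they were at least 3.12-fold, 3.18-fold and 3.15-fold lower than in the other cells, which held 97, 99 and 98 UMIs of them. Pbk is a mitotic kinase. AK012387 and Aagab also fell, by 3.40 ± 0.71 and 2.25 ± 0.61. Histone genes followed the cycle genes: Hist1h1b changed by -2.22 ± 0.28, Hist1h2ae by -1.95 ± 0.37 and Hist1h1d by -1.78 ± 0.38. Hmgb2, a chromatin protein gene that peaks in G2, fell by 1.52 ± 0.27, Top2a, the topoisomerase of mitotic chromosomes, by 1.65 ± 0.31, and the tubulin genes Tubb5 and Tuba1b by 0.73 ± 0.16 and 0.64 ± 0.15. DESeq2 gave no adjusted p for 23 of the 28 lower genes and called the other 5.

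The lower genes were read again without the most cycling cells. With the 20% of cells of each plate highest in S and G2/M genes left out, 1 gene was called lower and 3 higher, and Top2a, Tuba1b and Hist1h1a stood at log2 fold changes of 0.06, 0.13 and 0.28. Top2a and Tuba1b belong to the lists that picked the cells to leave out. A smaller difference in genes of these lists is thus built in by the filter. Ifitm1 (0.80), Ifitm3 (0.66) and Ly6e (0.67) were called in that fit. Malat1, a nuclear long noncoding RNA, was the gene called lower there (-0.99). Over all cells it gave 229, 510, 608 and 520 CPM in group 3 and 515, 992, 933 and 1163 CPM in the other cells (-0.95 ± 0.18; -0.90 without plate 2). It was lower on each plate, and the sets overlap only because plate 2 is low. With each cell thinned to 500 UMIs Malat1 stood at -0.77 and was not called (edgeR adjusted p = 0.133). Vim, the intermediate filament gene vimentin, fell by 0.83 ± 0.22 and was not called without plate 3, 4 or 5.

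Ribosomal protein genes took more of the RNA of group 3. After each cell was thinned to 500 UMIs, they made up 17.9, 18.9, 19.2 and 18.4% of UMIs on plates 2 to 5, and 16.4, 15.7, 16.8 and 16.2% in the other cells, a difference of 2.35 ± 0.72 percentage points (SD, n = 4; higher on 4 of 4 plates, exact two-sided sign-flip p = 0.13, the smallest that 4 plates allow). Gene by gene, 57 of 68 tested lay above 0 (2787 of 6401 over all genes), with a median log2 fold change of 0.20. None of the 68 passed in edgeR, where 10 were at an unadjusted p under 0.05 (562 of 6401 over all genes). DESeq2 called 18 higher (40 over all genes). Many of these genes have pseudogene copies, which can split their reads.

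By the Pearson correlation between summed log2 CPM values over the 6401 genes, group 4 came first (0.881) and then group 5 (0.874). Groups 8 and 9, with more S and G2/M transcripts, followed at 0.840 and 0.804, above group 2, with 117 cells, at 0.789. The sums differ in depth, and the part of depth in this order was not tested. Groups 4 and 5 hold few cycling cells, at 0.70% and 0.79% of thinned UMIs from S and G2/M genes against 0.75% in group 3. Setting group 3 against them thus removes most of the difference in cycling. Group 2 (0.63% from S and G2/M genes) was added after its levels of Ifitm1 and Cd74 were seen. All these comparisons share the cells of group 3.

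Against the 330 cells of group 4, 29 of 2174 genes were called (1.33%), 21 higher and 8 lower. Ifitm1 was higher by 0.72 ± 0.11 on the log2 scale, Ifitm3 by 0.70 ± 0.13 and Ly6e by 0.57 ± 0.11. Cd74 was not called (0.38 ± 0.24), nor were Shisa5, Pdzk1ip1, Prtn3 and Pfdn5. Ribosomal protein genes made up 12 of the 21 higher genes, 12 of 50 tested with a median of 0.28, among them Rpl37 (0.61 ± 0.15). Uqcr, a subunit of respiratory complex III, was higher by 0.85 ± 0.22, Snrpd2, a core protein of the spliceosome, by 0.71 ± 0.19, and the glycolytic enzyme gene Gpi1 by 0.67 ± 0.18. The lower genes were Malat1 (-1.40 ± 0.18), the RNA processing genes Acin1 (-1.13 ± 0.33) and Ddx5 (-1.0 ± 0.26), Kit, the stem cell factor receptor (-1.0 ± 0.27), and Vim (-0.91 ± 0.24). The other 3, named after their values were seen, were the transcription factor Myb (-0.87 ± 0.25), Hist1h2be (-0.80 ± 0.21) and the remodeller Chd4 (-0.64 ± 0.18). Kit lay at 321, 115, 263 and 231 CPM in group 3 and at 510, 332, 338 and 679 CPM in group 4, so that each plate of group 4 was above each plate of group 3.

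Against the 253 cells of group 5, 12 of 2174 genes were called (0.552%), 11 higher and 1 lower (0.046%). Cd74 was higher by 1.13 ± 0.27, Ifitm1 by 0.80 ± 0.11, Pdzk1ip1 by 0.80 ± 0.17, Prtn3 by 0.74 ± 0.16, Pfdn5 by 0.69 ± 0.17, Ly6e by 0.69 ± 0.12 and Ifitm3 by 0.58 ± 0.13. The table entry for Serpina3f and Serpina3g, serine protease inhibitors, was higher by 0.73 ± 0.17. Malat1 was the lower gene (-0.91 ± 0.19). Against the 117 cells of group 2, 5 of 2174 genes were called (0.23%), all higher: Anapc11, a subunit of the anaphase-promoting complex (1.49 ± 0.37), the phosphatase gene Ptpn18 (0.72 ± 0.18), Ly6e (0.64 ± 0.14), the chaperone gene Hsp90ab1 (0.50 ± 0.11) and beta-actin, Actb (0.38 ± 0.09). Ifitm1 (0.32 ± 0.12) and Cd74 (0.21 ± 0.30) were not called there. Of the 8 genes called higher against all other cells, 3 were called higher against group 4, 7 against group 5 and 1 against group 2, and all 8 lay above 0 in each. Groups 2, 4 and 5 are part of the pool against which these 8 genes were chosen. The shared sign is therefore partly built in and is no separate support. Without plate 2, Prtn3 stood at -0.10 against group 2. Of the 28 genes called lower against all other cells, 24 were tested against these groups. Called lower were 3 against group 4, 1 against group 5 and 0 against group 2, and 16, 19 and 12 lay below 0. The median log2 fold change of S phase genes was 0.05, -0.32 and 0.12 against groups 4, 5 and 2. That of G2 and M phase genes was -0.10, -0.03 and 0.25.

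**Figure D2:**
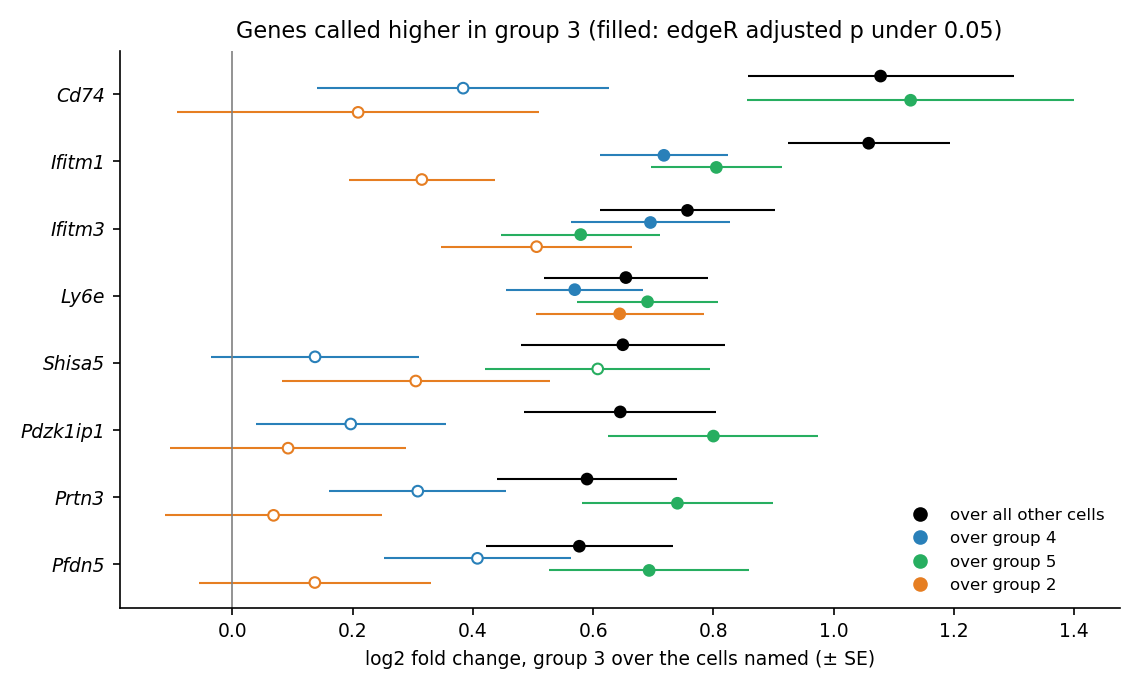
Log2 fold change (± SE) of group 3 over all other cells, group 4, group 5 and group 2 for the 8 genes called higher against all other cells; filled points passed edgeR at an adjusted p under 0.05. Ly6e passed in all 4 comparisons and Ifitm1 in 3, while Cd74 passed against all other cells and group 5 and lay at 0.38 and 0.21 against groups 4 and 2.

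Across the 9 groups, group 3 had the highest mean level over plates of each of these 8 genes, though not on each plate. This rank is favoured by the choice of the genes as higher in group 3. By plate, group 3 was the highest on 2 of 4 plates for Ly6e and Shisa5 and on 1 for Ifitm3, Pdzk1ip1, Prtn3 and Pfdn5. For Ifitm1 the order of means was group 3, group 2 (2858 CPM), group 6 (2335), group 4 (2213), group 5 (2067), group 7 (1483), group 8 (1314), group 10 (976) and group 9 (867). Group 3 was the highest on 3 of 4 plates; on plate 2 group 6, with 14 cells, was above it (557 against 458 CPM). Group 2 lay close below it on plate 3 (4019 against 4215 CPM), and the difference between these groups was not called. For Cd74 the means were 489 ± 111 CPM in group 3, 414 ± 102 in group 2, 384 ± 134 in group 4 and 260 ± 79 in group 7, and 93 ± 41 in group 9, the lowest (SD, n = 4 plates). Group 3 was the highest on 2 of 4 plates for Cd74, and its neighbours in this order overlap with it. For Malat1 group 3 had the lowest of the 9 means (467 ± 164 CPM) but was the lowest on 0 of 4 plates. Group 2 (539 ± 353 CPM) and group 6 (551 ± 273) lay within its spread, and group 4 (1287 ± 568) and group 10 (1985 ± 1037) above it.

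**Figure D3:**
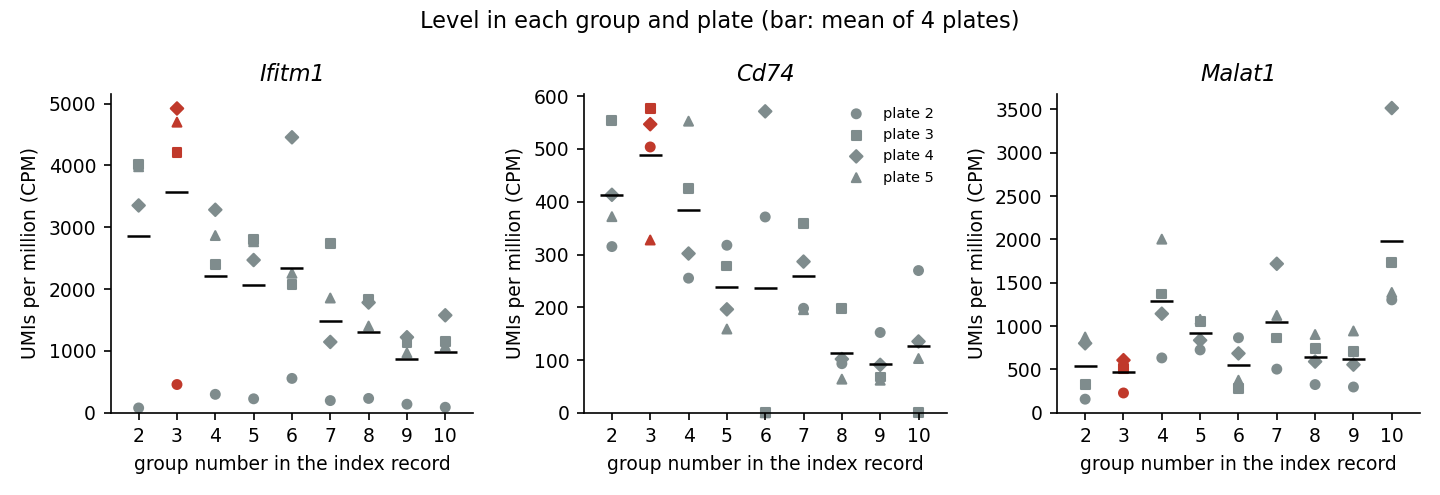
CPM of Ifitm1, Cd74 and Malat1 (vertical axes, from 0) in groups 2 to 10, with 1 point per sort plate, the mean of 4 plates as a bar and group 3 in red. Group 3 has the highest mean for Ifitm1 and Cd74 and the lowest for Malat1, with points of other groups overlapping its own, and groups 8, 9 and 10 are low in Cd74.

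Single cells within group 3 varied widely. Thinned to 500 UMIs, a cell held 0 to 10 UMIs of Ifitm1 with a median of 2, and 85 of 169 cells (50.3%) held at least 2, against 294 of 1251 others (23.5%). At least 5 were found in 22 cells of group 3 (13.0%) and in 30 of the others (2.40%). These counts pool the plates. Plate 2, which was low in Ifitm1, gave 22 of the 169 group 3 cells and 332 of the 1251 others, which widens the gap. The share of cells with any Ifitm1 UMI was 18.2, 78.8, 91.5 and 87.5% on plates 2 to 5 in group 3 and 8.43, 64.6, 65.1 and 60.4% in the others (difference 19.4 ± 8.71 points, higher on 4 of 4 plates, exact sign-flip p = 0.13). Unthinned, the means over plates were 80.3% and 72.9%. Cd74 was seen in 27.3, 25, 23.4 and 12.5% of group 3 cells and in 9.04, 9.62, 10.9 and 7.28% of the others (12.8 ± 5.59 points, 4 of 4 plates, exact sign-flip p = 0.13; unthinned 28.5% and 18.7%). Most group 3 cells thus showed no Cd74 UMI at this depth (133 of 169).

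Cd74 and the class II chains were then read in the same cells. In group 3, H2-Aa was seen in 4 of 36 cells with a Cd74 UMI (11.1%, exact Clopper-Pearson 95% interval 3.11 to 26.1) and in 12 of 133 without one (9.02%, 4.75 to 15.2). In the other cells these shares were 24 of 115 (20.9%, 13.9 to 29.4) and 112 of 1136 (9.86%, 8.19 to 11.7). H2-Ab1 was seen in 7 of 36 group 3 cells with Cd74 (19.4%, 8.19 to 36.02) and in 8 of 133 without (6.02%, 2.63 to 11.5), and in 13 of 115 (11.3%, 6.16 to 18.6) and 50 of 1136 (4.40%, 3.28 to 5.76) of the other cells. Ifitm1 was found in 26 of 36 group 3 cells with Cd74 (72.2%, 54.8 to 85.8) and 104 of 133 without (78.2%, 70.2 to 84.9). In the other cells it was found in 71 of 115 with Cd74 (61.74%, 52.21 to 70.65) and 539 of 1136 without (47.45%, 44.51 to 50.4). These cells come from plates that differ in Ifitm1, and the intervals cover counting error only.

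Group 3 cells held less RNA and fewer S and G2/M transcripts. Their median UMI count was 897, 1146, 908 and 1009 on plates 2 to 5, against 1209, 1486, 1266 and 1325, a ratio of 0.748 ± 0.024 (SD, n = 4; lower on 4 of 4 plates, exact sign-flip p = 0.13). Group 3 had the lowest mean of the 9 groups (990 ± 115 UMIs), with group 2 within its spread (1012 ± 134). Less RNA per cell and a poorer capture cannot be told apart here. S and G2/M genes made up 0.75 ± 0.08% of thinned UMIs in group 3 and 1.18 ± 0.10% in the others, lower on 4 of 4 plates (exact sign-flip p = 0.13).

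**Figure D4:**
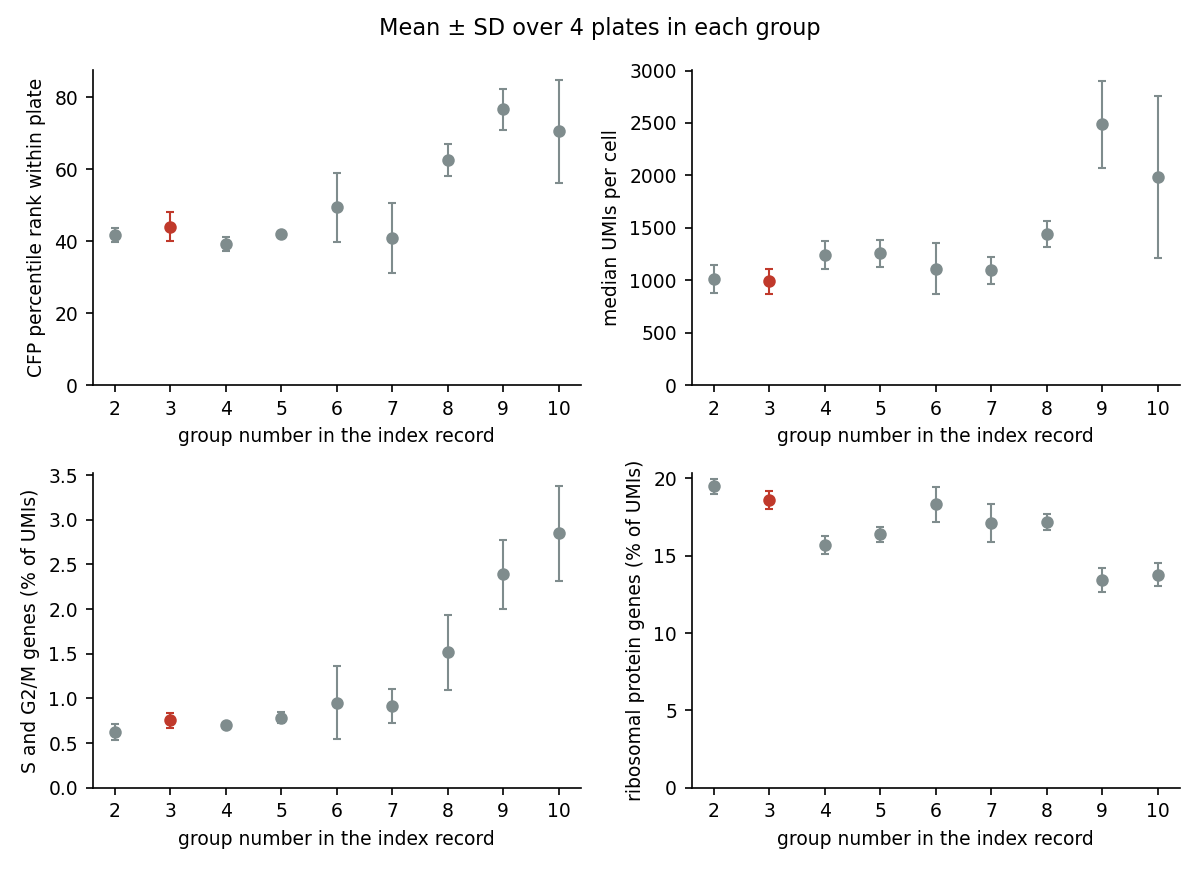
Mean ± SD over the 4 sort plates of the CFP percentile rank, the median UMIs per cell and the shares of UMIs from S and G2/M genes and from ribosomal protein genes, for groups 2 to 10, with group 3 in red. Group 3 has the lowest median UMIs (990) and, after group 2, the highest ribosomal share (18.6%), and its CFP rank (44.0) lies among the low groups 2 to 7, below groups 8 to 10.

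CFP, the contrast of the study, was lower in group 3 than in the other cells on all 4 plates. As percentile ranks within a plate, group 3 averaged 45.8, 48.9, 41.2 and 40.3 and the others 50.4, 50.4, 51.5 and 51.6, a difference of -6.94 ± 4.71 points (SD, n = 4 plates; exact sign-flip p = 0.13, 0.214 adjusted over 12 channels). The deficit lay at the bright end. Only 7.21 ± 5.09% of group 3 cells were among the 20% brightest of their plate, against 22 ± 1.12% of the others, while 21.0 ± 1.47% and 19.9 ± 0.69% were among the 20% dimmest. Groups 2, 4, 5 and 7 had lower mean ranks than group 3. Against group 4 its rank was higher by 4.85 points on 4 of 4 plates (exact sign-flip p = 0.13), and without the most cycling cells it was 0.82 points above the other cells (exact sign-flip p = 0.875).

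Of the other 11 channels, 6 differed from the other cells in 1 direction on all 4 plates. The APC-Alexa Fluor 750 channel was lower by 16.4, 10.6, 16.0 and 12.5 points (mean -13.9 ± 2.77), the PE-Cy7 channel by 8.51, 11.5, 10.7 and 8.92 points (-9.92 ± 1.44), and the Alexa Fluor 700 channel was higher by 9.52, 14.6, 14.4 and 1.66 points (10.1 ± 6.07). Channels are named by dye, and which surface marker a dye stood for is not known here. Forward scatter width, a measure related to cell size, differed by -6.85 ± 1.53 points, side scatter area by -6.42 ± 1.39 and side scatter width by -5.92 ± 2.10. Each of these 6 has an exact sign-flip p of 0.13, or 0.214 adjusted over the 12 channels, so none can pass at 4 plates. Against group 4 APC-Alexa Fluor 750 was at -3.49 points with 1 sign on all 4 plates, PE-Cy7 at -0.77 (exact sign-flip p = 0.375) and Alexa Fluor 700 at 2.44 (exact sign-flip p = 0.625), both with mixed signs, while forward scatter width (3.06), side scatter area (3.44) and side scatter width (1.79) turned to the other side. Group 2 shared these dye ranks. Its mean rank was 36.5 in APC-Alexa Fluor 750 (37.9 in group 3), 35.3 in PE-Cy7 (41.4) and 58.0 in Alexa Fluor 700 (59.0). Without the most cycling cells, the difference of group 3 from the other cells was -8.57 points in APC-Alexa Fluor 750 and -5.43 in PE-Cy7. In Alexa Fluor 700 it was 7.34 points (exact sign-flip p = 0.25). DAPI was lower on plates 3, 4 and 5 and 1.04 points higher on plate 2 (-9.08 ± 7.65; -12.5 without plate 2). PE, PE-Cy5, APC and forward scatter area had mixed signs.

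**Figure D5:**
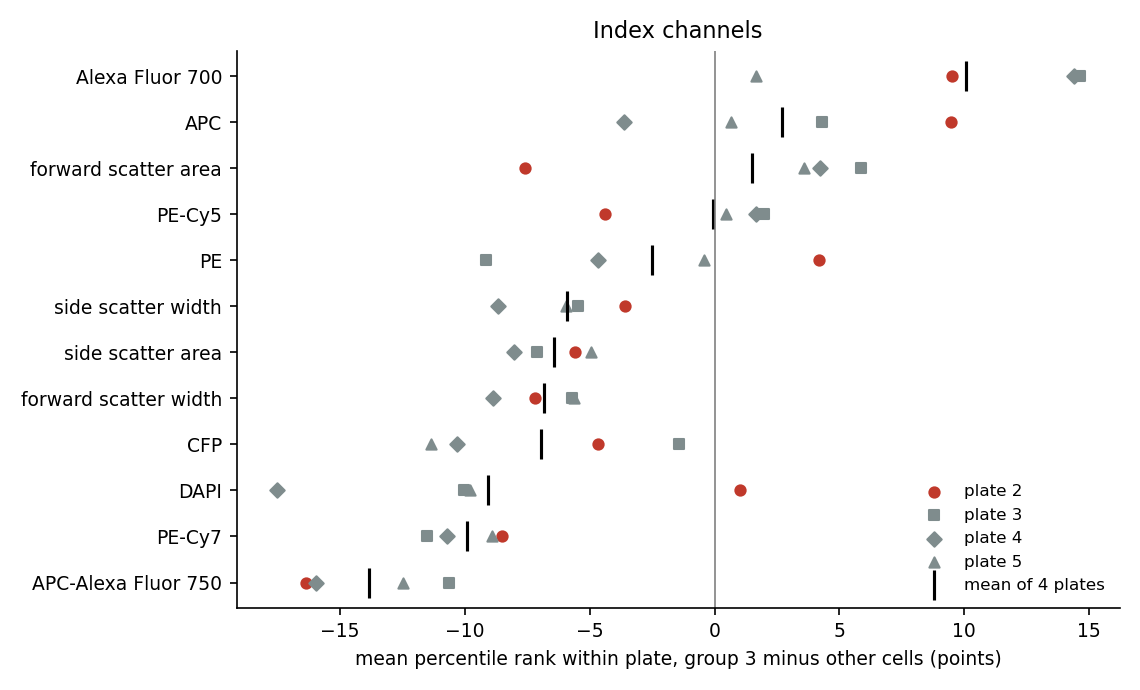
Difference in mean percentile rank within plate between group 3 and the other cells (horizontal axis, points) for 12 index channels, with 1 point per sort plate and the mean as a vertical tick; plate 2 is red. APC-Alexa Fluor 750 and PE-Cy7 lie below 0 on every plate, Alexa Fluor 700 above 0, and forward scatter area has plate 2 alone below 0.

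CFP was then set against gene expression within group 3, by splitting the cells of each plate at their median CFP into a brighter and a dimmer set of 84 cells each (1 middle cell left out). No gene of 513 tested was called by edgeR (0% called; 21 at an unadjusted p under 0.05) or by DESeq2 (6 at an unadjusted p under 0.05). Only 10720 to 32058 UMIs stood behind each sum, so the 95% intervals are wide. Ifitm1 differed by -0.22 ± 0.12 (brighter minus dimmer, log2; 95% interval -0.45 to 0.00), Cd74 by -0.31 ± 0.34 (-0.99 to 0.37) and Ifitm3 by 0.06 ± 0.16. The share of cells with Ifitm1 was 7.43 ± 9.0 points lower in the brighter set (exact sign-flip p = 0.5). S and G2/M genes took 0.82 ± 0.09% of UMIs in the brighter and 0.69 ± 0.09% in the dimmer set, higher on 4 of 4 plates (exact sign-flip p = 0.13, as one of 16 measures compared). Brighter cells also ranked higher on 4 of 4 plates in APC (13.1 ± 10.2 points), forward scatter width (10.9 ± 3.57), forward scatter area (8.08 ± 4.18) and side scatter width (5.29 ± 3.41), each with an exact sign-flip p of 0.13.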

How the data were processed

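Single-cell RNA of sorted HSCs was measured in 8 labelled batches. The deposited table gives raw UMI counts for 27297 gene entries in 1536 wells. Per the submitters' processing notes, cutadapt, STAR and featureCounts and builds mm9 and mm10 belong to the series; how reads became UMI counts is not stated in the sources used here. In the deposited index record CFP is a log10 channel value, forward scatter area an intensity, and the other channels a score of unstated scale; all were used as ranks within a plate, leaving out wells with a spreadsheet error (PE 47 wells, PE-Cy5 14, PE-Cy7 77, DAPI 69).

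UMIs of the recorded cells (511 or more each) were summed per plate, without a doublet caller, since each well received 1 sorted cell. The test was the quasi-likelihood F test of edgeR 4.0.16 under R 4.3.3, after filterByExpr and TMM scaling, with a plate block and Benjamini-Hochberg adjustment over all genes tested (threshold 0.05); DESeq2 1.42.0 was the other tool. Residual degrees of freedom were 3, or 24 in the fit of all groups. The prior ones were infinite, or 98.7 in the CFP split. With an infinite prior a gene's error comes from the trend over all genes, and its own spread between plates has no weight. The plate number pairs the sums: same-plate deviations correlated at 0.466, 0.295, 0.202 and 0.263 over 2871 genes. Gene p-values and errors thus rest on a spread between plates pooled over genes, which may be technical. None of the p-values measures a spread between mice. Channels and cell measures were compared by an exact sign-flip test over plates. The script was tested on simulated data.

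Named genes are Ifitm1, Cd74, the tested members of the class II, Ifitm and sorting gate lists, the 12 largest called changes in each direction, up to 4 called members of each list and the 5 largest in each direction of further comparisons. The group, lists and tests were chosen with earlier results of these data known. Bulk and methylation samples were not analysed here.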

Additional observations from a re-analysis of the deposited data

Results flagged for a closer look

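In 4 of 54 values checked over the 4 plates, 1 plate lay far from the other 3; chance gives this in about 1 of 20 values. The forward scatter area rank of group 3 differed from that of the other cells by -7.605 points on plate 2, where the other plates lay at 3.57 to 5.85. The share of cells with a Pdzk1ip1 UMI was 18.04 points higher in group 3 on plate 5, against 3.62 to 5.31 on the other plates. The log2 difference of Ly6e was 1.157 on plate 2 and 0.59 to 0.67 on the others; group 3 held 14 UMIs of it there. The log2 difference of Hist1h1a was -3.026 on plate 2, where group 3 held no UMI and the value depends on the prior count, and -1.38 to -1.08 on the others.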

How the results depend on the processing

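The 8 higher and 28 lower genes of group 3 against the other cells became 34 and 28 with RLE size factors, 40 and 11 in DESeq2, 3 and 45 without a filter on low counts, 3 and 4 with cells thinned to 500 UMIs, 4 and 11 with cells of at least 1000 UMIs, 3 and 1 without the most cycling 20% of cells, and 61 and 6 with the other groups weighted equally. Leaving out a plate gave 4 to 34 higher and 10 to 24 lower, 12 to 39 called against group 4 (29 with all plates), 5 to 25 against group 5 (12) and 0 to 5 against group 2 (5). Against group 4, 1 gene was called with no filter; against group 5, 20 with RLE, 25 in DESeq2 and 0 with no filter; against group 2, 9, 14 and 0. No gene passed in the CFP split under any alternative run.

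With no replicate block, 0 genes were called higher and 0 lower against the other cells, and 0 against group 4, group 5 or group 2.

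Signs turned in the following. Without the most cycling cells, Hist1h1a stood at 0.28, Top2a at 0.0625 and Tuba1b at 0.13 (log2), CFP at 0.82, PE at 1.24 and PE-Cy5 at 2.03 points, and the CFP-dim share at -0.66. Against group 4, CFP stood at 4.85, PE at 1.89, PE-Cy5 at 1.45, DAPI at 0.85, forward scatter width at 3.06, side scatter area at 3.44 and side scatter width at 1.79. With cells of at least 1000 UMIs, PE-Cy5 stood at 3.18, APC at -1.10 and the H2-Aa share at 0.0608; with median ranks, APC at -1.57. PE-Cy5 ranged from -0.77 to 1.37 when a plate was left out. The causes were not tested. Of 238 alternatives for channels and cell measures, 222 kept their direction. At this depth weakly expressed genes could not be tested.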
